A study of Mus musculus with 4 samples.

Results

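The keratin gene family was examined across tumours grown from SCC7, a mouse head and neck squamous carcinoma cell line. Members were all genes whose mouse symbol is Krt followed by a digit, which leaves out the keratin-associated proteins. The RefSeq gene table held 55 such genes. Transcripts of 47 of them were found in the deposited tables, out of 17574 genes in all. The other 8 (Krt2, Krt9, Krt13, Krt24, Krt74, Krt76, Krt88 and the pseudogene Krt8-ps) had no matching transcript and were not analysed here.

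The cells had been injected under the skin of the back of C3H/HeN mice, labelled wild type, and every tumour was taken on day 10. The treated mice were given anti-CD71 antibody, which binds the receptor for transferrin, on day 6 and again on day 9, and the other mice are labelled only as controls. Each group had 2 bulk RNA libraries, here called control 1, control 2, treated 1 and treated 2 by the labels' replicate numbers, and tumour cells and all host tissue dissected with them were measured together. The model rests on 1 cell line, and the sources used here give neither age nor sex of the mice. Nothing in the labels says whether replicate libraries came from separate mice, so p-values measure the spread between these libraries.

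Keratins are the intermediate filament proteins of epithelial cells. A filament is built from pairs of 1 type I (acidic) and 1 type II (basic) chain, and each kind of epithelium uses its own pairs. Krt8 with Krt18 is the pair of simple epithelia and of many carcinomas, Krt5 with Krt14 that of basal cells of stratified epithelia, and Krt1 with Krt10 that of the upper epidermis. Krt6a, Krt6b, Krt16 and Krt17 are induced in wounded or dividing skin and are made in hair follicles. Krt25 to Krt28 pair with Krt71 to Krt74 in the inner root sheath, which surrounds the growing hair, and a further set builds the hair shaft.

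Values are TPM, which are scaled for transcript length and library total, so levels can be set side by side between genes. The number of reads behind them is unknown. Both controls and treated 2 were complete, with 59881 transcripts each. The table of treated 1 ended after 13586 transcripts (22.69%), and a transcript beyond that point was treated as missing. Of 59 keratin transcripts, 12 were listed for all 4 libraries. They covered 8 members wholly and 3 in part, and left 36 members with no value in treated 1.

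The family split into a pair of abundant tumour keratins and a large set that was near 0 in the controls and higher in treated 2. In both controls 4 members reached 1 TPM, namely Krt8, Krt18, Krt80 and Krt16. In treated 2 there were 32, and 42 of the 47 members lay above both controls there, against 38.1% of all 17574 genes. Summed keratin TPM was 1799 and 1891 in the controls and 2544 in treated 2, which is 1.379 times the control mean. Without Krt8 and Krt18 the sums were 9.51, 7.67 and 394.6 TPM. Fewer cells of a type and less RNA per cell cannot be told apart in bulk libraries. The treated 2 library thus stood apart from the controls in this family, and from treated 1 in the listed keratins described below. The other 15 members stayed under 1 TPM in the complete libraries, Krt23 being the highest of them at 0.97 TPM, and Krt12 was listed at 0 in all 3.

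**Figure D1:**
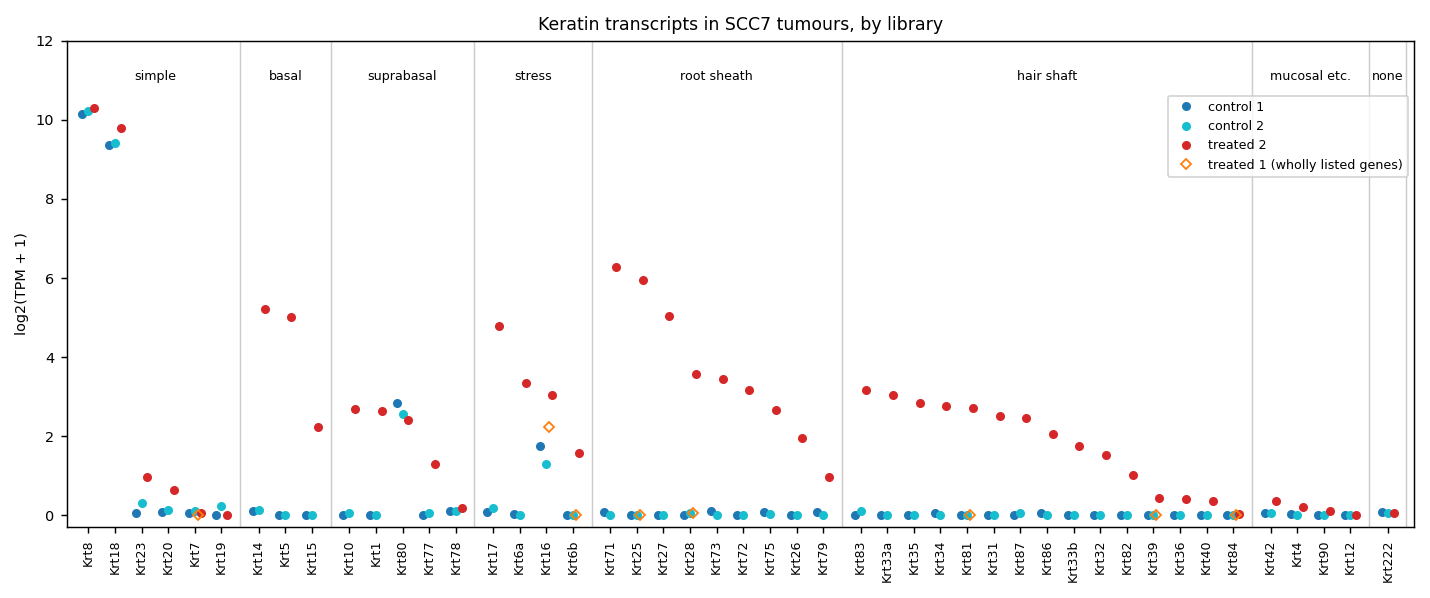
Level of each of the 47 keratin genes on the log2(TPM + 1) scale (vertical axis), grouped by the epithelium each is known for (horizontal axis). Each dot is 1 complete library and each open diamond is treated 1 for the 8 wholly listed genes. Krt8 and Krt18 stand near the top in every complete library, while the basal, root sheath and hair shaft keratins lie near 0 in both controls and, for most of them, well above 0 in treated 2.

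Among the simple epithelial keratins, Krt8 and Krt18 carried nearly all of the signal. Krt8, the type II chain (chromosome 15 from 101996711 to 102004342, GRCm38.p6), stood at 1132 and 1203 TPM in the controls and at 1256 TPM in treated 2. The 3 values lie close together, and limma over 3 libraries did not call the difference (0.11 on the log2 scale, SE 0.06, adjusted p = 0.355). Krt18, its type I partner and its neighbour on the chromosome (102028216 to 102032026), stood at 657 and 680.5 TPM in the controls and at 893 TPM in treated 2. The treated library lay above both controls, and Krt18 rose by limma (log2 change 0.42, SE 0.06, adjusted p = 0.0438). This call was lost in 4 of 5 alternatives, which used another pseudocount, another filter, no filter, median scaling or no trend (adjusted p from 0.0459 to 0.201 over the 5). The ratio of Krt8 to Krt18 was 1.72 and 1.77 in the controls and 1.41 in treated 2. Neither gene was listed for treated 1, so these fits take treated 2 to have the spread of the control pair.

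The remaining simple keratins stayed under 1 TPM. Krt23 was the highest of them, at 0.05, 0.24 and 0.97 TPM in control 1, control 2 and treated 2. Krt7, found in ducts and other simple epithelia, did not pass 0.09 TPM in any library and was at 0 in treated 1. Krt19 did not pass 0.19 TPM in any complete library, and its listed transcript was at 0 in treated 1. Krt20, a keratin of gut epithelium, was at 0.07, 0.11 and 0.56 TPM in control 1, control 2 and treated 2.

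The keratins by which squamous epithelium is usually known were all but absent from the controls. Krt5 was listed at 0 in each control and at 31.4 TPM in treated 2. Krt14, its type I partner, was at 0.09 and 0.10 TPM in the control pair and at 36.4 TPM in treated 2. Krt15, a type I keratin of basal cells and of the hair follicle bulge, was listed at 0 in each control and at 3.72 TPM in treated 2. Trp63, the transcription factor of basal squamous cells, stood at 0.18, 0.32 and 1.35 TPM in the same order, and the epithelial adhesion gene Epcam at 0.10, 0.20 and 1.30 TPM. Not all epithelial genes were so low in the controls. The adhesion gene Cdh1 was at 2.15, 1.79 and 2.46 TPM and Sfn at 2.74, 2.53 and 19.4 TPM. Of the 10 carcinoma epithelial markers listed, Krt8 and Krt18 among them, 9 were higher in treated 2 than in both controls (38.1% of all genes were). The defining squamous genes Krt5, Krt14 and Trp63 thus stayed under 1 TPM in both control tumours, which are labelled as a squamous carcinoma, while Krt8 and Krt18 were abundant.

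In the suprabasal group the members divided in their pattern. Krt1 and Krt10, the pair of the upper epidermis, reached 5.21 and 5.44 TPM in treated 2, while in the controls Krt1 was at 0 and Krt10 at 0 and 0.04 TPM. Krt77, a type II keratin of mouse epidermis, was at 0, 0.04 and 1.47 TPM in control 1, control 2 and treated 2. Krt80, a type II keratin of many epithelia, went the other way, with 6.20 and 4.91 TPM in the control pair and 4.30 TPM in treated 2. Limma over 3 libraries did not call this difference (-0.30 on the log2 scale, SE 0.17, adjusted p = 0.347). Krt78 stayed at 0.15 TPM or less in the complete libraries.

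Of the wound keratins, Krt16 was the one present in all libraries. It stood at 2.37 and 1.46 TPM in the control pair, 3.69 TPM in treated 1 and 7.31 TPM in treated 2. Both treated libraries lay above both controls, but treated 1 was nearer to the controls than to treated 2. Over 4 libraries the difference did not pass (log2 change 1.12, SE 0.31, adjusted p = 0.109 by limma), nor did it without treated 2 (0.70, adjusted p = 0.172). With treated 2 alone set against both controls, Krt16 rose (1.53 on the log2 scale, SE 0.24, adjusted p = 0.0491 by limma), a call that was lost in all 5 alternatives (adjusted p from 0.0573 to 0.235).

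The 2 transcripts of Krt16 differed in their pattern. NM_001313958 was at 0.77, 0, 2.75 and 4.25 TPM in control 1, control 2, treated 1 and treated 2, and NM_008470 at 1.60, 1.46, 0.94 and 3.06 TPM. In treated 1 the former lay above both controls and the latter below them. In the GENCODE M21 transcripts, 12.4% of the 50-base words of Krt16 also occur in Krt14, so reads could be split between the genes. Its level in treated 2 therefore stands beside the high Krt14 there, and the part of shared reads in it was not tested.

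The other wound keratins were near 0 in controls. Krt17, also a keratin of the hair follicle's outer sheath, was at 0.06, 0.14 and 26.8 TPM in control 1, control 2 and treated 2. Krt6a was at 0.03, 0 and 9.25 TPM in that order. Krt6b, which shares 44.5% of its 50-base words with Krt6a, was listed at 0 in each control and in treated 1, and at 1.98 TPM in treated 2.

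The keratins of the hair root sheath were the highest of those that set treated 2 apart. Krt71, a type II chain of the inner root sheath (chromosome 15 from 101733949 to 101743097), was at 0.06 and 0 TPM in the control pair and at 77.1 TPM in treated 2. Krt25, its type I counterpart (chromosome 11 from 99315516 to 99322951), was listed at 0 in each control and in treated 1, and at 60.5 TPM in treated 2. The 2 treated libraries therefore lie at opposite ends for Krt25. Krt28, another type I chain of this sheath, repeated this with 0 and 0.05 TPM in the control pair, 0.05 TPM in treated 1 and 10.9 TPM in treated 2.

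Further root sheath keratins followed in the complete libraries. Krt27 and Krt26 were listed at 0 in each control and at 32.0 and 2.86 TPM in treated 2. The type II chains Krt73 and Krt72 reached 9.85 and 8.04 TPM there, with 0.09 and 0 TPM in the controls for Krt73 and 0 in both for Krt72. Krt75, of the companion layer that lies outside the inner sheath, was at 0.06, 0.02 and 5.30 TPM in control 1, control 2 and treated 2. Krt79, of the hair canal, was at 0.07, 0 and 0.96 TPM. Summed over the 9 members of this group, the values were 0.28 and 0.07 TPM in the control pair and 207.6 TPM in treated 2.

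The promoters of the root sheath keratins are shown because these genes lie in separate clusters on chromosomes 11 and 15 yet share a pattern across the libraries. Each line runs from 60 bases before to 20 bases after the RefSeq start in GRCm38.p6, on the gene's strand, with the motif TATAAA in capitals. Krt5, Krt8 and Krt18 are given for comparison.
Krt71 (chr15:101743078-101743157, minus strand): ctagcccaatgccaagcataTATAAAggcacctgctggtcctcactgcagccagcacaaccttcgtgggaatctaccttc
Krt72 (chr15:101786501-101786580, minus strand): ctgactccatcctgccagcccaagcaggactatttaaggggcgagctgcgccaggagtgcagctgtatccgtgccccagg
Krt73 (chr15:101802341-101802420, minus strand): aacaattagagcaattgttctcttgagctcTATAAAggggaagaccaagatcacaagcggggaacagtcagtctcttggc
Krt25 (chr11:99322932-99323011, minus strand): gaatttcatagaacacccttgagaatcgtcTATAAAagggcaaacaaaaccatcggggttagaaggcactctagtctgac
Krt26 (chr11:99337946-99338025, minus strand): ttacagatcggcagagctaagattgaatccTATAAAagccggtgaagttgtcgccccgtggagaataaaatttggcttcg
Krt27 (chr11:99351099-99351178, minus strand): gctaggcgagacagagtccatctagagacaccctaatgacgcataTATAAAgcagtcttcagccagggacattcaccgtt
Krt28 (chr11:99374884-99374963, minus strand): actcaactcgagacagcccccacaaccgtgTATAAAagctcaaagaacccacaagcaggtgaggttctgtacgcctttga
Krt75 (chr15:101573885-101573964, minus strand): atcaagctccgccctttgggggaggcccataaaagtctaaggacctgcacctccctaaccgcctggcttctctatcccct
Krt79 (chr15:101940305-101940384, minus strand): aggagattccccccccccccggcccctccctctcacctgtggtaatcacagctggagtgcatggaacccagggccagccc
Krt5 (chr15:101712886-101712965, minus strand): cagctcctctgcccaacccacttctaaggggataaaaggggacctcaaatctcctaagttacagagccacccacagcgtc
Krt8 (chr15:102004323-102004402, minus strand): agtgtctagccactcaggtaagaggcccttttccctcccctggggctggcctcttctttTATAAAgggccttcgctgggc
Krt18 (chr15:102028156-102028235, plus strand): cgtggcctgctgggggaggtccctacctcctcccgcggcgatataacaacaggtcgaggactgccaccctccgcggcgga

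In these windows TATAAA was present in 6 of the 9 root sheath genes and absent from Krt72, Krt75 and Krt79. It began 30 bases before the start in 4 of them (Krt73, Krt25, Krt26 and Krt28), 40 bases before it in Krt71 and 15 bases before it in Krt27. In Krt8 it began 1 base before the RefSeq start. RefSeq promoters of 300 bases were matched for 31 members. Searched on both strands, TATAAA was in 18 of them (58.1%) and in 13.6% of all 32851 promoters of that length. Among the 17 with a promoter that were high in treated 2 only, by the limits given below, it was in 12 (70.6%). The AP-1 motif TGANTCA was in 0 of the 31 and in 7.81% of all promoters, the AP-2 motif GCCNNNGGC in 6 (19.4%) and in 16.6%, and the GC box GGGCGG in 2 (6.45%) and in 35.7%. These counts describe letters in a short window and show no binding.

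Hair shaft keratins were lower than those of the root sheath but as one-sided. Their 15 members summed to 0.09 and 0.12 TPM in the control pair and to 51.4 TPM in treated 2, and each of the 15 was higher in that library than in both controls (38.1% of all genes were). The highest were Krt83 at 7.96 TPM and Krt33a at 7.20 TPM, then Krt35 at 6.22, Krt34 at 5.75 and Krt81 at 5.58 TPM. Krt31, Krt87, Krt86 and Krt33b stood at 4.74, 4.51, 3.18 and 2.36 TPM, and Krt32 and Krt82, keratins of the hair cuticle, at 1.87 and 1.02 TPM. Of these 11, Krt83 (0 and 0.08 TPM), Krt34 (0.05 and 0 TPM), Krt86 (0.04 and 0 TPM) and Krt87 (0 and 0.04 TPM) had a value above 0 in a control, and the other 7 were at 0 in both. Krt36, Krt39, Krt40 and Krt84 were at 0.36 TPM or less in each library that lists them.

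Of this group Krt81, Krt39 and Krt84 were listed for treated 1, and all 3 were at 0 there. For Krt81 that compares with 0 in both controls and 5.58 TPM in treated 2. Several hair keratins have sequence in common: Krt81 shares 38% of its 50-base words with Krt86, and Krt34 shares 20.4% of its words with Krt31. Single values of the hair shaft keratins that share words are uncertain for that reason. Krt32, Krt39, Krt40, Krt82 and Krt84 share 0% of theirs with another keratin. In the root sheath group, Krt27 shares 11.1% of its words with Krt25.

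Mucosal, corneal and nail keratins stayed low. Krt4, of the oesophagus and tongue, was at 0.03, 0 and 0.16 TPM in control 1, control 2 and treated 2, Krt42, of the nail, at 0.05, 0.04 and 0.30 TPM, and Krt90 at 0, 0 and 0.08 TPM. Krt222, a keratin-like gene that belongs to none of these groups, was at 0.06, 0.04 and 0.04 TPM.

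A count across the family used limits chosen after the values were seen: at least 1 TPM in treated 2 and under 0.25 TPM in both controls. By these limits 28 of the 47 members (59.6%) were high in treated 2 only (a name that leaves treated 1 aside), against 0.882% of all 17574 genes. The 28 had a median of 5.66 TPM there, from 1.02 TPM in Krt82 to 77.1 TPM in Krt71, and at most 0.14 TPM in a control. Just outside the limits lay Krt23 at 0.97 and Krt79 at 0.96 TPM. The reverse pattern, at least 1 TPM in both controls and under 0.25 TPM in treated 2, was found in 11 genes and in 0 keratins.

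Keratins made up 18.1% of the 155 genes with this pattern and 378.7 of their 1049 summed TPM. Krt71 and Krt25 ranked 1 and 2 among the 155 by TPM, and 17 of the 50 highest were keratins. The 28 members were divided evenly between the type I cluster on chromosome 11 (99232761 to 100269951), with 14 of its 24 members, and the cluster on chromosome 15 (101348315 to 102032026), with 14 of its 23. Of the genes for keratin-associated proteins, which embed hair keratins, 30 of 47 (63.8%) met the same limits, with sums of 0.49 and 0.83 TPM in the control pair and 243.6 TPM in treated 2.

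The library of treated 1 did not show this pattern where it could be read. Of the 8 wholly listed members, 4 met the limits in treated 2 (Krt25, Krt28, Krt81 and Krt6b) and 0 met the same limits in treated 1. Among all 1703 wholly listed genes the share was 1.59% in treated 2 and 0.176% in treated 1. The 10 listed transcripts other than those of Krt16 summed to 0.05 and 0.32 TPM in the control pair, 0.12 TPM in treated 1 and 79.6 TPM in treated 2. The highest of them in treated 1 was a minor transcript of Krt14 at 0.07 TPM. For these transcripts the difference thus lay between treated 2 and the other 3 libraries, not between the labelled groups.

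**Figure D2:**
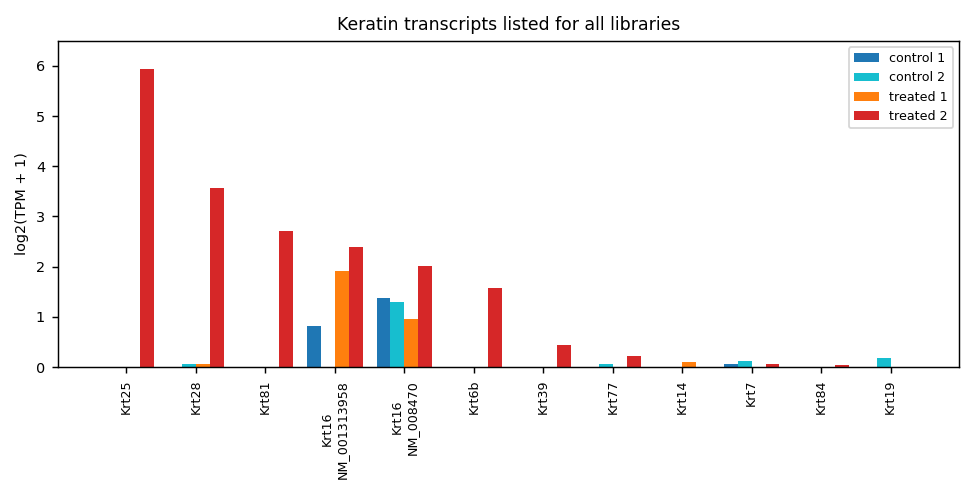
The 12 keratin transcripts listed for all 4 libraries (horizontal axis), each bar giving 1 library's level as log2(TPM + 1) (vertical axis). Krt25, Krt28, Krt81 and Krt6b are high in treated 2 and at 0.05 TPM or less in treated 1, and a transcript of Krt16 is the one bar of treated 1 above 1 TPM.

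The ratio of type II to type I chains differed between the groups in treated 2. The root sheath keratins summed to 106.3 TPM of type I and 101.3 TPM of type II, a ratio of 0.953. For hair shaft keratins the sums were 29.1 and 22.3 TPM (ratio 0.765), and for basal keratins 40.1 and 31.4 TPM (ratio 0.783). The wound group had more type I chains, with Krt16 and Krt17 at 34.2 TPM together against 11.2 TPM for Krt6a and Krt6b (ratio 0.329). The suprabasal group, which includes Krt80, had more type II chains (ratio 2.05), as did the simple group (ratio 1.40). Within single pairs Krt5 to Krt14 gave 0.863 and Krt1 to Krt10 gave 0.958.

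Over the whole family the type II to type I ratio was 1.73 and 1.77 in controls and 1.29 in treated 2. Type I sums were 660.2, 682.9 and 1110 TPM and type II sums 1139, 1208 and 1433 TPM in control 1, control 2 and treated 2. Without Krt8 and Krt18 the ratio in treated 2 was 0.819. No test was run on these sums.

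**Figure D3:**
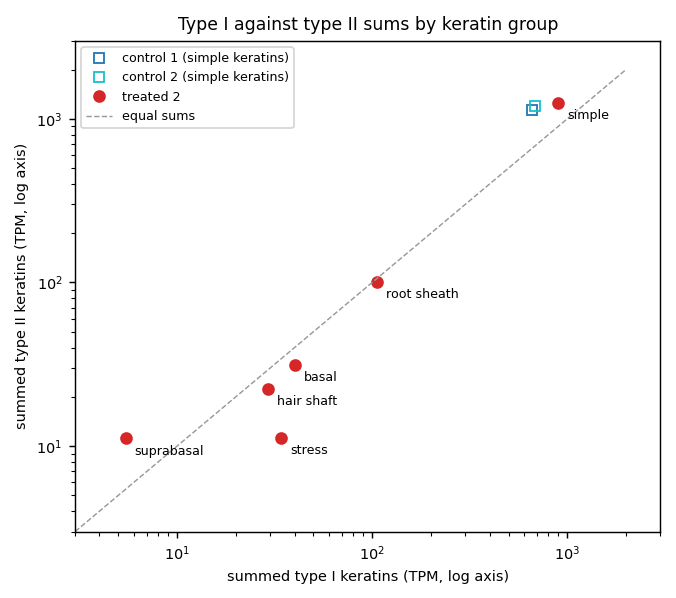
Summed TPM of type I (horizontal, log axis) against type II keratins (vertical, log axis) for 6 keratin groups in treated 2 (filled circles), and for the simple keratins in both controls (open squares). The root sheath, basal and hair shaft groups lie below but near the dashed line of equal sums, the simple keratins above it and the wound keratins (marked stress) below it. The suprabasal point includes Krt80, which the controls express too.

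Few keratins could be tested, because the filter of 1 TPM in 2 libraries removes genes that are high in 1 library. Over 4 libraries the short table of treated 1 was a further limit, with 36 members unlisted there. Even with no filter, 8 members were tested over 4 libraries. Over 3 libraries 4 of the 47 members passed the filter. At an unadjusted p under 0.05 there were 2 of the 4, against 2961 of 11982 genes, and limma called Krt18 and Krt16 higher and 0 lower. Over all 11982 genes it called 0.476% higher and 2.39% lower, with a median log2 change of -0.01 against 0.26 for the 4 keratins. Over 4 libraries Krt16 was the one member that passed the filter, and 0 keratins were called, against 0.832% of 1563 genes higher and 3.45% lower. At an unadjusted p under 0.05 there were 1 keratin and 416 of the 1563 genes. Of those genes 13 were called higher and 54 lower. With median scaling that split was 21 higher and 36 lower, in place of 13 and 54.

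A filter of 1 TPM in 1 library admitted 32 members, and limma then called 20 higher, against 0.482% of 12457 genes. Those 28 extra members were admitted by treated 2 alone and had to differ, so this count is no support. Under that filter over 4 libraries 5 members were tested and 0 called, with log2 changes of 2.97 for Krt25 (adjusted p = 0.365) and 1.79 for Krt28 (adjusted p = 0.362) by limma.

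Genes of other skin cell types were higher in treated 2 as well. All 14 epidermis markers outside the keratins were higher there than in both controls, as were 38.1% of all genes, with sums of 3.62 and 4.84 TPM in the control pair and 51.4 TPM in that library, and 9 of the 14 were at 0 in both controls. Sbsn and Dmkn, both made by differentiating keratinocytes, rose by limma over 3 libraries (log2 change 1.71, adjusted p = 0.0249, and 3.27, adjusted p = 0.0288). They were 2 of 3 tested, against 0.476% of all tested genes called higher. The call was lost in 2 of 5 alternatives for Sbsn (adjusted p from 0.0279 to 0.148 over the 5) and in 4 of 5 for Dmkn (0.0369 to 0.223). Over 4 libraries Dmkn was not called (log2 change 1.80, adjusted p = 0.238 by limma), its listed transcripts being at 0.36, 1.42, 1.49 and 14.9 TPM in control 1, control 2, treated 1 and treated 2. By the same count hair follicle markers stood higher in 14 of 15 genes (38.1% over all genes), with sums of 15.7, 18.7 and 85.5 TPM. Tchh, which encodes the trichohyalin of the inner root sheath, was at 0.06 and 0.02 TPM in the control pair and at 32.6 TPM in treated 2. Of 3 tested hair follicle genes, 0 were called by limma, Crym (1.54, adjusted p = 0.0859) and Dlx4 (-0.52, adjusted p = 0.0827) having the largest changes. At an unadjusted p under 0.05 there were 2 of the 3, against 2961 of all 11982 tested genes.

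Over transcripts listed for all 4 libraries the same markers were low in treated 1. The 8 epidermis transcripts summed to 1.16 and 2.03 TPM in the control pair, 1.49 TPM in treated 1 and 27.8 TPM in treated 2. The 5 hair follicle transcripts summed to 0.50, 1.5, 0.47 and 7.57 TPM in that order. Hoxc13, a transcription factor needed for hair keratin expression, was at 0 in the other 3 libraries and at 1.21 TPM in treated 2. For melanocytes, another cell type of the follicle, the 4 listed marker transcripts summed to 0.14, 0.10, 0.13 and 1.47 TPM in control 1, control 2, treated 1 and treated 2. Over whole genes the sums were 0.23 and 0.19 TPM in the control pair and 4.67 TPM in treated 2. There 5 of the 6 genes were higher than in both controls (38.1% over all genes). Tyrp1 and Mlana were at 0 in both controls, and Slc45a2 was at 0, 0.02 and 0 TPM in control 1, control 2 and treated 2. The part of skin tissue in the keratin levels was not tested.

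**Figure D4:**
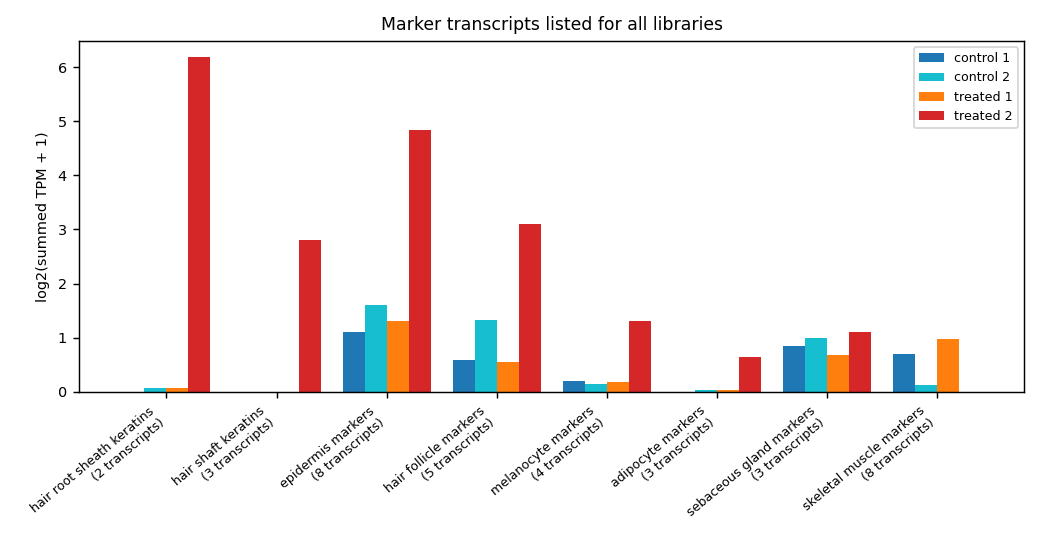
Summed level of marker transcripts listed for all 4 libraries, as log2(summed TPM + 1) (vertical axis), for keratin groups and for markers of skin, fat and muscle (horizontal axis, with the number of transcripts summed). The 8 muscle transcripts are all of Tnnt3, so their bars do not give the level of the whole muscle list. The root sheath and hair shaft keratins and the epidermis and hair follicle markers are highest in treated 2, and for these groups treated 1 lies at or near the level of the controls.

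Other host tissue did not all follow the keratins. Adipocyte markers were higher in treated 2 than in both controls in 8 of 8 genes (38.1% over all genes). Their 3 transcripts listed for all libraries summed to 0, 0.02, 0.02 and 0.55 TPM in control 1, control 2, treated 1 and treated 2. Cfd, which encodes the fat-cell protease adipsin, rose (log2 change 2.76, adjusted p = 0.0249 by limma over 3 libraries). It was 1 of 2 tested, against 0.476% of all tested genes called higher. The Cfd call was lost in 3 of 5 alternatives (adjusted p from 0.0308 to 0.207 over the 5). Skeletal muscle markers were higher in treated 2 than in both controls in 3 of 10 genes. They summed to 191.8 and 54.3 TPM in the control pair and 123.6 TPM in treated 2, which lay between them. Of their 8 tested genes 0 were called by limma, with log2 changes of -1.24 for the myosin gene Myh2 and 1.00 for the creatine kinase gene Ckm. At an unadjusted p under 0.05 there were 0 of the 8, against 2961 of all 11982 tested genes. Sebaceous gland markers summed to 4.02, 4.09 and 4.81 TPM, 5 of 7 being higher in treated 2 than in both controls. Far2 was the only one tested (log2 change 0.23, adjusted p = 0.49 by limma).

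Genes that anchor, control or process keratins gave few calls. Of 20 desmosome and hemidesmosome genes, 9 were tested and 0 called by limma over 3 libraries, with a median log2 change of -0.04. At an unadjusted p under 0.05 there were 4 of them, against 2961 of all 11982 tested genes. The desmosomal cadherin gene Dsc2 (-1.61, adjusted p = 0.0687) and the periplakin gene Ppl (0.48, adjusted p = 0.121) had the largest changes. In 7 of the 20 the limits for a high level in treated 2 only were met, against 0.882% of all genes, and the filter kept these 7 out of the fit. Among them were Dsp, which encodes desmoplakin, at 0.07, 0.06 and 5.34 TPM, and Perp at 0.07, 0.07 and 19.9 TPM. Itgb4 and Plec, which tie keratins to the basement membrane, were at 93.7, 87.4 and 76.5 TPM and at 164.2, 154.9 and 154.8 TPM, so they were present where Krt5 and Krt14 were not.

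Of 18 transcription factors known for keratin control, 13 stood higher in treated 2 than in both controls (38.1% over all genes) and 1, Klf4, lower than both. The limits for a high level in treated 2 only were met by 3 of the 18 (0.882% of all genes). Of 5 tested, 0 were called higher and Klf4, which drives epidermal differentiation, fell (2.39% of all tested genes were called lower). It stood at 126.8 and 123.6 TPM in the control pair and at 77.6 TPM in treated 2 (-0.68 on the log2 scale, SE 0.08, adjusted p = 0.0288 in the limma fit of 3 libraries), a call that was lost in 3 of 5 alternatives (adjusted p from 0.0317 to 0.134 over the 5). Tfap2a, which encodes AP-2 alpha, was at 19.1, 21.6 and 20.7 TPM, and over 4 libraries its log2 change was 0.00 (adjusted p = 0.993 by limma). All 10 processing and chaperone genes stood higher in treated 2 than in both controls (38.1% over all genes). Of these, 2 met the limits for a high level in treated 2 only (0.882% of all genes). By limma 6 were tested and 0 called, the small heat shock protein gene Hspb1 (0.54, adjusted p = 0.106) and Ktn1 (0.25, adjusted p = 0.153) having the largest changes. At an unadjusted p under 0.05 there were 2 of the 6, against 2961 of all 11982 tested genes. Sfn, which encodes the keratin-binding protein 14-3-3 sigma and was listed as a carcinoma marker, was at 2.74, 2.53 and 19.4 TPM and rose by limma over 3 libraries (log2 change 2.49, adjusted p = 0.00672), a call that was lost in 1 of 5 alternatives (no filter, adjusted p = 0.101).

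The most abundant intermediate filament transcript was not a keratin. Vim, which encodes the vimentin of mesenchymal cells, stood at 6028 and 6158 TPM in the control pair, 5978 TPM in treated 1 and 6742 TPM in treated 2. The groups overlap, and its log2 change over 4 libraries was 0.06 (SE 0.07, adjusted p = 0.627 by limma). Of 8 tested genes of other intermediate filaments, 0 were called by limma over 3 libraries, with Gfap (-0.78, adjusted p = 0.157) and Prph (-0.39, adjusted p = 0.204) having the largest changes. At an unadjusted p under 0.05 there were 3 of the 8, against 2961 of all 11982 tested genes. Lmna, a nuclear lamin gene, was at 769.9, 725.8 and 841.2 TPM.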

How the data were processed

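The authors deposited TPM per RefSeq transcript for 4 tumour libraries, written to 2 decimals. Per the submitters' processing notes the genome was GRCm38.p6, while aligner and quantifier were not given in the sources used here. Such values keep no read depth, so no counting interval is given. Complete tables summed to between 999998.88 and 1000000.86 TPM. The table of treated 1 broke off inside a line, which was dropped.

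RefSeq's gene table for this build matched 58425 of 59881 transcripts, 1744 of them copies at a second locus, and TPM were added per gene. Between 1.42% and 1.55% of TPM had no symbol. Limma 3.58.1 in R 4.3.3 was fitted over all genes on log2(TPM + 1), with an intensity trend and Benjamini-Hochberg adjustment, on genes with at least 1 TPM in 2 libraries. The fit was run on simulated data in which every library had the spread of the control pair and changed genes moved alike in each treated library. A treated library that stands apart from the other was not simulated, so that run is no support for the calls. Calls have an adjusted p under 0.05, and log2 changes on this scale understate low genes. The fit over 4 libraries used genes with at least 90% of their TPM in listed transcripts. The fit over 3 libraries set treated 2 against both controls.

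Members, lists and tests were chosen with earlier results of these data known. Every keratin of 1 TPM or more in any library is named; of other lists, the called members or the 2 largest changes, and further genes named were chosen after their values were seen. A listed symbol without an entry in the gene table is not used here. Alternatives changed the pseudocount, filter, scaling, trend, listing limit, replicate block and libraries.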

Additional observations from a re-analysis of the deposited data

How the results depend on the processing

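Direction held in all 32 changes of single keratins recomputed under an alternative, and 22 also kept their side of the threshold. The filter, trend, listing limit and replicate block left each log2 change as it was. Direction could therefore differ only with the pseudocount, scaling or libraries left out. The 2 keratins called over 3 libraries became 1 with a pseudocount of 0.1, 20 with a filter of 1 TPM in 1 library, and 0 with no filter, with median scaling or without the trend. At an unadjusted p under 0.05 there were 40 of 46 with no filter, against 3401 of 17026 genes. That count includes the members near 0 in both controls and high in treated 2 alone, which had to differ, so it is no support. There were 2 of 4 with median scaling, against 3051 of 11982 genes, and 2 of 4 without the trend, against 2606 of 11982. Over the alternatives adjusted p ran from 0.0459 to 0.201 for Krt18 and from 0.0573 to 0.235 for Krt16. Fits over 3 libraries could not leave out a control, since no residual degree of freedom would remain. Over 4 libraries 11 of 12 alternatives called 0 keratins. Leaving out single libraries gave between 0 and 1, Krt16 being called without treated 1 (log2 change 1.53, adjusted p = 0.0337). With the replicate block 0 keratins were called (Krt16 adjusted p = 0.169 by limma), its log2 change of 1.12 being fixed because the block is balanced. The labels' replicate numbers do not say that libraries are paired, and deviations of same-numbered libraries had a correlation of -0.00554 across genes. With limits on the controls of 0.1 or 0.5 TPM, 26 and 28 keratins were high in treated 2 only. Taking treated 1 in place of treated 2, among wholly listed keratins, gave 0 in place of 4; these checks were added after the data were seen. Summed keratin TPM in treated 2 was 1.379 times the control mean, 1.345 without control 1, 1.414 without control 2 and 1.38 with curated transcripts. For type I this ratio ran from 1.626 to 1.682 and for type II from 1.187 to 1.259. With 2 controls, leaving out 1 moves their mean by a fixed part of their SD, so this is no test of stability. Klf4, Sfn, Sbsn, Dmkn and Cfd kept their direction in all 25 fits, where only the pseudocount and scaling could alter it, and their call in 12. The cause of these changes was not tested. Read depth is unknown, so a value of 0 in treated 1 cannot be given a detection limit.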
